A study of Mus musculus with 6 samples.

Results

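ZEB2 and ZEB1 are paralogs, sister transcription factors, and their arrays were set directly against each other in melan-a cells with activated BRAF. These were 2 of the 6 arrays of the series, taken by their labels, and the array of activated BRAF alone stayed out of the ratio. Melan-a is an immortal line of pigment cells (melanocytes) that came from epidermal melanoblasts of C57BL/6 mouse embryos. All groups carried delta-BRAF-ER, in which an active version of the BRAF kinase waits for tamoxifen to turn it on. The groups with 1 array each were BRAF activated with ZEB2 (the ZEB2 array), BRAF activated with ZEB1 (the ZEB1 array), BRAF activated with SNAIL2, BRAF activated with TWIST1, BRAF activated alone (BRAF-on) and BRAF not activated (BRAF-off). The tamoxifen dose, the time of treatment, and whether the added factors were of mouse or another species are not given in the sources used here. With 1 array a group, an effect of the factor cannot be told apart from a difference between cultures. No test was possible with 1 array a side, and the precision is limited by that number. Here "with ZEB2" and "with ZEB1" stand for the arrays so labelled.

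ZEB1 and ZEB2 carry a cluster of zinc fingers near each end of the protein and bind DNA at E-boxes with the letters CACCTG. They recruit the corepressor CtBP and are best known for silencing E-cadherin and other epithelial genes during the epithelial to mesenchymal transition. In the pigment lineage ZEB2 is known as a factor of normal melanocytes that favours expression of Mitf, the regulator of pigment cell differentiation, while ZEB1 is known from dedifferentiated melanoma cells with little Mitf. The values below are deposited signals, in the arrays' own signal units, or log2 ratios of the ZEB2 array over the ZEB1 array, so that a positive ratio means a higher signal with ZEB2. Signals under a floor of 63.7 units were raised to it for ratios, and a ratio with 1 array under the floor is a bound.

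Of 11600 genes with a signal at or above the floor on at least 1 of the 2 arrays, 668 were at least 2-fold higher with ZEB2 than with ZEB1 (5.76%) and 743 at least 2-fold lower (6.41%). These shares are the background for each count of list members below. At least 4-fold differences numbered 105 on the higher and 74 on the lower side. The median log2 ratio over all genes was -0.06, and 44.9% of genes lay above 0. Bounds made up 75 of the higher and 116 of the lower genes. Dim genes were counted as lower more often than bright ones: 10.5% of 2505 genes with a mean signal under 200 were lower, against 3.69% of 4739 genes with a mean signal of 1000 or more. Of the higher genes, 354 had another probe set that could be compared, and in 334 of them (94.4%) all such probe sets pointed the same way. Of the lower genes 255 had one, and 244 (95.7%) agreed in sign throughout. Over all genes entered the share was 66.9%, but these include genes with ratios near 0, where a small difference turns the sign. Agreement in size was less common than agreement in sign. At least 1 other probe set was also 2-fold apart in that direction for 190 of the 354 higher genes and 143 of the 255 lower genes. Probe sets of a gene share the RNA sample, so they speak for the measurement on these 2 arrays and not for the condition.

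Some control probe sets differed between the arrays. All 3 probe sets for 18S ribosomal RNA were higher with ZEB2, by 2.19-fold, 2.43-fold and 2.49-fold, which is past the size counted for genes. The brightest of them had 12855 on the ZEB2 array and 5288 on the ZEB1 array, against 11263 with SNAIL2, 4338 with TWIST1, 8740 in BRAF-on and 11120 in BRAF-off. The part of this difference in the gene results was not tested. Poly-A controls are transcripts added to the RNA before amplification. Those for Dap, Lys, Phe and Thr had ratios of ZEB2 over ZEB1 from 0.758 to 1.33 over 24 probe sets, with a median of 0.959. Those for Trp, left out of that range, were under the floor on both arrays, with ratios of 0.381, 1.40 and 0.899. Hybridisation controls ran from 0.825 to 1.14 over 18. The ratio of 3' to 5' signal was 1.54 on the ZEB2 array and 1.43 on the ZEB1 array for Actb, and 0.838 and 0.792 for Gapdh. Genes at or above the floor numbered 10883 with ZEB2 and 11269 with ZEB1, of 18193.

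**Figure D1:**
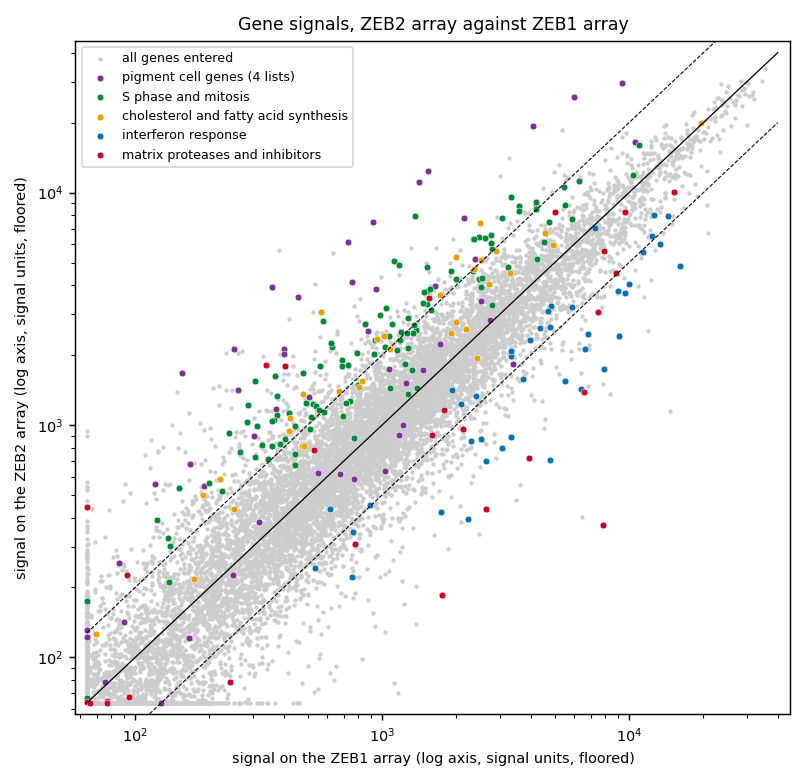
Signal of each gene on the ZEB2 array (vertical, log axis, signal units) against the ZEB1 array (horizontal, log axis, signal units), values under 63.7 raised to it. Grey points are the 11600 genes entered, coloured points members of gene lists, the solid line marks equal signals and the dashed lines a 2-fold difference. Pigment, cell cycle and cholesterol genes lie mostly above the solid line, and all 41 interferon genes lie below it.

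Of the 15 possible pairs of arrays, ZEB2 and ZEB1 had the third highest number of genes at least 2-fold apart, 1411. Only SNAIL2 and TWIST1 (2176) and ZEB1 and SNAIL2 (2165) had more. ZEB2 and SNAIL2 were 427 genes apart, ZEB1 and TWIST1 889, and ZEB2 and BRAF-off 149, the fewest of all pairs. For both paralogs together, 3 genes were at least 1.5-fold above all the other 4 arrays on both the ZEB2 and the ZEB1 array, and 0 were that far below. That total of 3 was the 10th of the 15 pairs, tied with SNAIL2 and BRAF-on. The counts ran from 0 in all for ZEB2 with TWIST1 to 211 above and 161 below for ZEB1 with TWIST1, and SNAIL2 with TWIST1 had 2 genes in all. The 3 genes, named after their values were seen, were Serpina3n, Pla2g10 and Rasa4. Serpina3n, a secreted inhibitor of serine proteases, had a signal of 288 on the ZEB2 array and 347 on the ZEB1 array, against 129 in BRAF-on, 75.5 in BRAF-off and values under the floor with SNAIL2 and TWIST1.

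**Figure D2:**
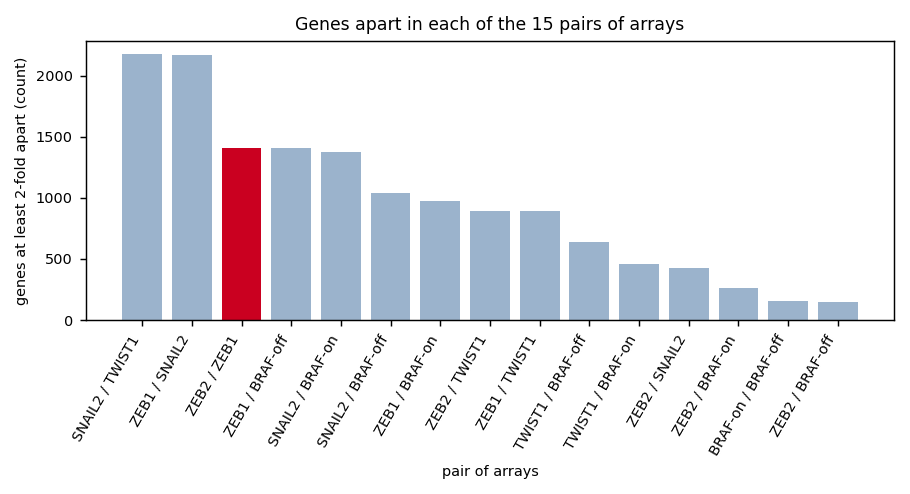
Number of genes at least 2-fold apart (vertical) in each of the 15 pairs of arrays (horizontal), in order of size. The bar of ZEB2 and ZEB1, in red with 1411 genes, stands the third highest, and that of ZEB2 and BRAF-off, with 149, is the lowest.

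Zeb2 had a signal of 1132 on the ZEB2 array and 540 on the ZEB1 array, a log2 ratio of 1.07, with SNAIL2 at 362, TWIST1 at 901, BRAF-on at 806 and BRAF-off at 953. All 4 other Zeb2 probe sets were also higher on the ZEB2 array, with log2 ratios between 0.68 and 1.20. The ZEB1 array was the lowest of the 6 on 3 of the 5 sets. Zeb1 had 168 on the ZEB2 array and 109 on the ZEB1 array, so the array labelled ZEB1 showed no raised Zeb1 signal. Its other 3 probe sets were under the floor on both arrays. Arrays of this kind read the end of a transcript, and an introduced coding sequence may lie outside it, so the values check no label. Braf had 746 on the ZEB2 array and 437 on the ZEB1 array, a log2 ratio of 0.77, and its other comparable probe sets ran from -0.38 to 0.96.

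Other transcription factors of the same transition were within 2-fold. Snai2 had 4201 on the ZEB2 array and 3547 on the ZEB1 array, and its other probe set was at 0.80. Twist1 had 209 and 404, a log2 ratio of -0.95, and the ZEB1 array was the highest of the 6. Foxc2 was at -0.70. Twist2 (0.22), Tcf3 (0.15), Tcf4 (0.23) and Tcf12 (-0.10) were all within 1.5-fold. Of 11 such factors entered, Zeb2 alone was 2-fold apart. Cofactors through which ZEB proteins act had 0 of 22 at least 2-fold apart and a median of 0.10. Smad2 and Smad5, signal carriers of TGF-beta and BMP receptors, were at 0.58 and 0.69, and Smad3 at -0.49.

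Epithelial genes known as ZEB targets were mostly dim on both arrays, with only 12 of 36 reaching the floor on either one. None of the 12 was 2-fold apart, and their median was 0.14, against -0.06 over all genes. Cdh1, which encodes E-cadherin, was under the floor with both factors, at 56.9 on the ZEB2 array and 11.6 on the ZEB1 array, and it was under the floor on the other 4 arrays too. Esrp1 (58.0 and 5.95), a splicing regulator of epithelial cells, was likewise under the floor on both. Cadherins and catenins had 1 of 10 members higher and 2 lower. Cdh2, N-cadherin, was even, at 4220 on the ZEB2 array and 3865 on the ZEB1 array. The Schwann cell cadherin Cdh19 was higher with ZEB2 (1858 against 909), and Cdh13 was lower (161 against 407).

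Pigment cell genes were higher with ZEB2, and melanin enzymes had the highest median of the 38 lists. Across 4 lists, 28 of 50 genes entered were at least 2-fold higher with ZEB2 than with ZEB1 and 0 were that much lower, against 5.76% and 6.41% of all genes. Their median log2 ratio was 1.33. Neither array was often the extreme of the 6 for these genes. The ZEB2 array was the highest for 3 of the 50 (6%), against 6.68% of all genes entered. The ZEB1 array was the lowest for 4 (8%), against 19.5%. In a bulk sample, fewer pigmented cells and less of these transcripts in each cell cannot be told apart. Summed over the 9 markers fixed for melanocytes, the signal was 115794 on the ZEB2 array and 28303 on the ZEB1 array, and all 9 markers were above the floor on both.

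Among the melanin enzymes, Tyr, the tyrosinase that starts melanin synthesis, had 7467 on the ZEB2 array and 922 on the ZEB1 array, an 8.10-fold difference. It had 9714 with SNAIL2, 2583 in BRAF-on and 5366 in BRAF-off. Tyrp1, a later enzyme of the pathway, had 25678 with ZEB2 and 6000 with ZEB1. Dct, the dopachrome tautomerase, had 29621 with ZEB2 and 9319 with ZEB1. These 3 enzymes were also above the floor in BRAF-on, BRAF-off and with SNAIL2, and under it with TWIST1. The fibril protein gene Pmel (19313 with ZEB2, 4076 with ZEB1) was 4.74-fold higher and the melanosome gene Mlana (12368 with ZEB2, 1533 with ZEB1) 8.07-fold. Gpnmb, a glycoprotein of melanosomes and lysosomes, differed least of the 6 genes of this list, at 16480 with ZEB2 and 10585 with ZEB1. All 6 lay above 0, with a median of 2.17.

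Genes of melanosome transport had 10 of 21 members higher and 0 lower. Rab38, a small GTPase that delivers melanin enzymes, had 4125 with ZEB2 and 757 with ZEB1. Its partner Rab32 had 3837 and 947. Mlph, the linker that tethers melanosomes to myosin, was 5.26-fold higher, the motor gene Myo5a 2.90-fold, and Gpr143, a melanosomal receptor, 5.41-fold. Some genes of general sorting complexes were close: Hps1 stood at -0.27, Hps4 at -0.14 and Ap3d1 at 0.04. Others were not: Hps3 was 3.14-fold higher with ZEB2 (1170 and 373), and Bloc1s6 was at -0.88. The list median of 0.39 became 0.88 with the floor at the 60th percentile. Among channels and transporters 5 of 9 were higher. Trpm1, a cation channel named melastatin, had the widest ratio of the pigment genes, 3924 with ZEB2 against 357 with ZEB1 (11.0-fold). The 3 other Trpm1 probe sets had smaller log2 ratios, between 0.60 and 2.72. The transporter genes Slc45a2 (8.43-fold) and Oca2 (8.42-fold) followed in this list, both needed for melanosome pH.

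Of the lineage factors, Mitf itself had 11060 on the ZEB2 array and 1410 on the ZEB1 array, a 7.84-fold difference. Its level was higher with SNAIL2 (14255) than with ZEB2, and lower with TWIST1 (245) than with ZEB1. Sox10, which drives Mitf transcription, had 5182 with ZEB2 and 2375 with ZEB1. Pax3, another activator of Mitf, had 3428 and 2514, a ratio of 0.45. Lef1, the nuclear partner of beta-catenin, was 4.65-fold higher with ZEB2 and Sox5 2.96-fold. Tfap2a (0.72) and Tfap2b (-0.70) pointed opposite ways, each within 2-fold. Sox9 was the exception at the lower end, at 127 with ZEB1 and under the floor on the other 5 arrays. Among the receptors, Kit, the receptor of stem cell factor, had 1675 with ZEB2 and 154 with ZEB1. Mc1r, the receptor of melanocyte stimulating hormone, had 3549 and 456, and Met, the hepatocyte growth factor receptor, 7750 and 2151.

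**Figure D3:**
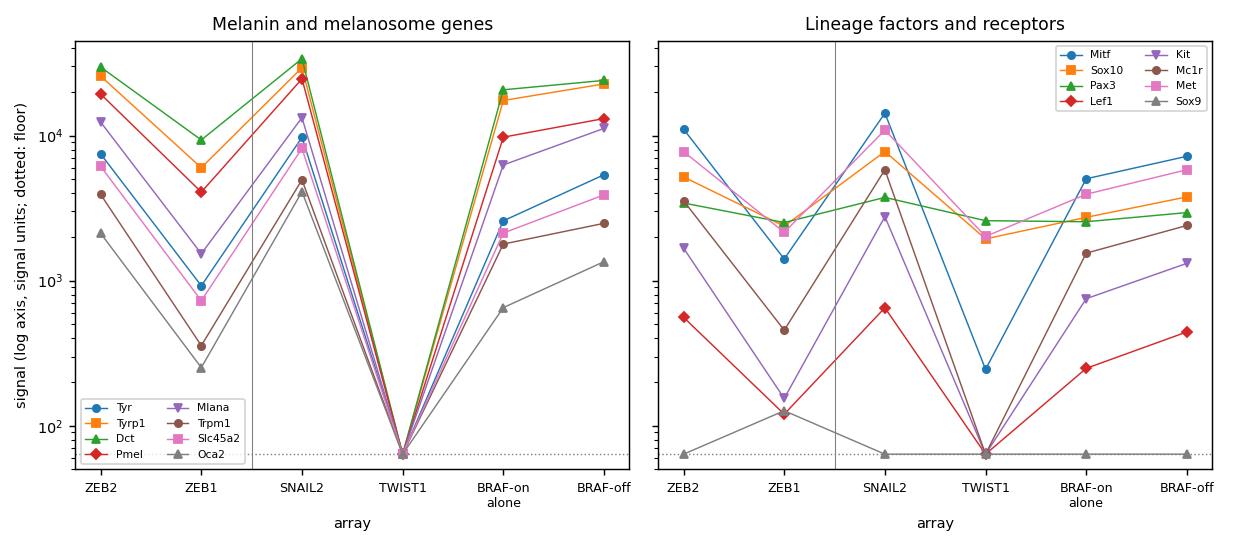
Signal (vertical, log axis, signal units) of 8 melanin and melanosome genes (left) and 8 lineage factors and receptors (right) on each of the 6 arrays (horizontal), with values under the floor of 63.7 drawn at the dotted line. Lines join the points of 1 gene and have no meaning between arrays. Every gene on the left is higher on the ZEB2 than on the ZEB1 array, while Pax3 on the right is nearly level.

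Mitf protein binds a motif known as the M-box, with the letters TCATGTG. It was searched on both strands in windows from 250 bases before to 50 bases after annotated gene starts, taken from RefSeq on build GRCm38.p6. Of 39 pigment genes entered with a window, 8 (20.5%) held it, against 2.64% of 9427 genes entered. The M-box was in 2.91% of 550 genes at least 2-fold higher with ZEB2 and in 3.20% of 563 genes at least 2-fold lower. Its share was thus alike in both directions. Of the pigment genes holding it and without an opposing probe set, the pair with the widest ratios is shown, with the motif in capitals. Trpm1 lies at chr7:64153646-64153745 on the plus strand and Tyr at chr7:87493482-87493581 on the minus strand. The M-box of Tyr begins 22 bases before the annotated start.
Trpm1: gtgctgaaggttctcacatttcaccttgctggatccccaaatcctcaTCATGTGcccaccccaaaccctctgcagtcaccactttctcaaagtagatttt
Tyr: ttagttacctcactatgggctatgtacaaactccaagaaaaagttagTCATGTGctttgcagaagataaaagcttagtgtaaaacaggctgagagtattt
The E-box CACCTG that ZEB proteins bind was in the windows of 18.0% of 550 genes at least 2-fold higher with ZEB2 and of 23.8% of 563 genes at least 2-fold lower, against 20.7% of all genes with a window. A match of letters is a description of the window and not a bound site.

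Genes of DNA replication and mitosis differed nearly as a block. All 52 S phase genes entered were above 0, 35 of them at least 2-fold higher with ZEB2 than with ZEB1, with a median of 1.14. All 63 mitosis genes were above 0 too, 41 of them at least 2-fold higher, with a median of 1.19. The ZEB1 array was the lowest of the 6 for 48 of the 52 and for 54 of the 63, against 19.5% of all genes entered.

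Among replication genes, Mcm2, a subunit of the helicase that opens DNA, had 5086 on the ZEB2 array and 1120 on the ZEB1 array. Cdc6, which loads that helicase, had 1219 with ZEB2 and 287 with ZEB1. Ccne2, a cyclin of S phase entry, had 926 and 240. The DNA repair genes Brca1 (2158 and 626) and Brca2 (536 and 150) were 3.45-fold and 3.57-fold higher with ZEB2, though another Brca1 probe set lay below 0 at -0.32. The smallest ratios of the list were those of Orc6 (0.06) and Rfc3 (0.08). Among mitosis genes, Mki67, the marker of dividing cells, had 7911 with ZEB2 and 1357 with ZEB1, a 5.83-fold difference. It had 2107 with SNAIL2, 5422 with TWIST1, 7199 in BRAF-on and 7677 in BRAF-off, so the ZEB1 array was the lowest. The kinesin gene Kif20b had 1549 and 307, and the kinetochore gene Cenpf 2815 and 578. With SNAIL2, Kif20b was at 241 and Cenpf at 287, both below the ZEB1 array.

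Binding letters of the cell cycle were frequent in these promoters. E2F factors, which switch on S phase genes, bind TTTCCCGC or TTTGGCGC, and 13 of 42 S phase genes with a window (31.0%) held either one, against 3.51% of all genes. The CHR element TTTGAA, through which the DREAM and MuvB complexes act on mitosis genes, was in 36 of 53 mitosis genes (67.9%), against 14.1%. For each list the pair with the widest ratios among holders without an opposing probe set or alternative is shown, with either strand's match in capitals. Cdc6 lies at chr11:98907967-98908066 (plus strand), Brca2 at chr5:150522407-150522506 (plus strand), Mki67 at chr7:135716443-135716542 (minus strand) and Kif20b at chr19:34922308-34922407 (plus strand).
Cdc6: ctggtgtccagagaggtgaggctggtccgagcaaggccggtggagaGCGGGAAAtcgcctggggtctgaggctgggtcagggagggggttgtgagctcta
Brca2: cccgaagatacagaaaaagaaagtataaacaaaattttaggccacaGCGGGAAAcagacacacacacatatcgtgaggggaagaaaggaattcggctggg
Mki67: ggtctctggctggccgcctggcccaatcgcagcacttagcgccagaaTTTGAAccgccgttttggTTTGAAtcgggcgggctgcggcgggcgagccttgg
Kif20b: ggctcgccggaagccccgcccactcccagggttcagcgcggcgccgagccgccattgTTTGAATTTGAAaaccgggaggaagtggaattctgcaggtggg

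Among brakes of the cell cycle, Cdkn1a, the p21 inhibitor of cyclin-dependent kinases, had 806 on the ZEB2 array and 2287 on the ZEB1 array. Cdkn2b, the p15 inhibitor, had 519 and 1457, and Cdkn1c, the p57 inhibitor, 87.4 and 231. Cdkn2a was at -0.94 and just within 2-fold. Of 15 CDK inhibitors and RB family members 3 (20.0%) were lower and 1 (6.67%) higher, against 6.41% and 5.76% of all genes, with a median of 0.07. The higher one, Rbl1, turned to -0.027 with the median of its probe sets, and the list median to -0.13. Among p53 targets, Gadd45a was 3.10-fold lower with ZEB2 (912 with ZEB2, 2825 with ZEB1), while the other members except Cdkn1a were within 2-fold. Lmnb1, which encodes lamin B1 of the nuclear envelope and is known to be lost in senescent cells, had 1645 with ZEB2 and 560 with ZEB1. In the BCL2 family 3 of 15 were lower with ZEB2: Bcl2l14 (135 and 511), and the death-promoting genes Bcl2l11 (623 and 1590) and Bmf (502 and 1083).

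Lipid synthesis genes, for cholesterol and fatty acids, were higher with ZEB2. Of 32 entered, 14 were at least 2-fold higher with ZEB2, 0 were that much lower and 31 lay above 0, with a median of 0.93. Over all genes 5.76% were higher, 6.41% lower and 44.9% above 0. Idi1, an isomerase of the isoprenoid path, had 3058 with ZEB2 and 566 with ZEB1. Hmgcs1, the synthase ahead of the rate-limiting step, had 7402 and 2480. Srebf2, the factor that drives this path, had 1363 and 479, though another of its probe sets was at only 0.23. Srebf1 was at -0.33. Lipid carriers went both ways. Fabp5, a fatty acid binding protein, had 18598 with ZEB2 and 5369 with ZEB1, and the lipase gene Mgll 5484 and 631. Fabp4 had 401 with ZEB2 and 6449 with ZEB1, and Apoe, an apolipoprotein, 474 and 3498. Apod (2206 and 6892) was lower with ZEB2 as well, and Apoc1 had a bound of -2.85 on the log2 scale.

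The interferon response was lower with ZEB2 throughout. All 41 genes entered lay below 0 and 24 were at least 2-fold lower, against 6.41% of all genes, with a median of -1.15. Zbp1, a sensor of left-handed nucleic acids, had 704 on the ZEB2 array and 4793 on the ZEB1 array, a 6.81-fold difference. It had 165 with SNAIL2, 6175 with TWIST1, 1673 in BRAF-on and 1173 in BRAF-off. Irf7, an interferon regulatory factor, had 394 with ZEB2 and 2218 with ZEB1. The GTPase genes Igtp (1741 and 7879) and Gbp2 (1424 and 6389) were 4.53-fold and 4.49-fold lower with ZEB2. The ZEB1 array was the highest of the 6 for 28 of the 41 (68.3%), against 30.3% of all genes entered. MHC class I genes followed with 9 of 17 lower and a median of -1.02, led by the immunoproteasome genes Psmb9 and Psmb8, which are in both lists. The peptide transporter gene Tap1 had 1020 with ZEB2 and 2565 with ZEB1, and Nlrc5, the activator of MHC class I, 751 and 1992. B2m, the light chain, was at -0.29, and the general chaperones Calr (0.29), Canx (0.42) and Pdia3 (0.36) were slightly above 0.

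The interferon element, GAAA and GAAA with 2 bases of any kind between, was in the windows of 15 of 30 interferon genes (50%), against 3.67% of all genes and 8.35% of the genes at least 2-fold lower with ZEB2. Of the genes holding it and without an opposing probe set, the pair with the widest ratios is shown, with the match in capitals on whichever strand it lies. Igtp lies at chr11:58199477-58199576 and Gbp2 at chr3:142620559-142620658, both on the plus strand.
Igtp: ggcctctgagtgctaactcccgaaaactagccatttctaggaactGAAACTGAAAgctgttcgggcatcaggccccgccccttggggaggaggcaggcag
Gbp2: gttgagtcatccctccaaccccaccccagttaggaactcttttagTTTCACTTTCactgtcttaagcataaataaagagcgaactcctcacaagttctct

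Genes of leukocytes were among those lower with ZEB2. Mpeg1, a pore protein of macrophages, had 139 on the ZEB2 array and 1377 on the ZEB1 array. The tetraspanin gene Cd53 had 129 and 1028, Fermt3, an integrin activator of blood cells, 71.2 and 532, and the integrin gene Itgb2 was at least 5.13-fold lower with ZEB2. Of the 10 markers fixed for macrophages and leukocytes, 6 were under the floor on both arrays. Ptprc had 0.770 with ZEB2 and 1.11 with ZEB1, Adgre1 35.3 and 33.4, C1qa 4.27 and 2.92, Tyrobp 3.32 and 8.41, and C1qb and Itgam were also under it. The other 4 were above the floor and higher with ZEB1. Cd68, a glycoprotein of macrophage endosomes, had 178 with ZEB2 and 466 with ZEB1, Lyz2, a lysozyme, 383 and 527, Csf1r, the receptor of a macrophage growth factor, 73.3 and 130, and Fcer1g, an immunoglobulin receptor chain, 126 and 140. The summed signal of the 10 was 826 with ZEB2 and 1363 with ZEB1, against a range of 712 to 876 on the other 4. Over the 6 genes entered of the longer leukocyte list the median was -0.62. The summed signal of the fibroblast markers was 8913 with ZEB2 and 12518 with ZEB1, of the keratinocyte markers 475 and 495, and of the endothelial markers 256 and 365. In the longer lists the medians were -0.52 for fibroblast, -0.42 for keratinocyte and 0.20 for endothelial markers. Of the endothelial ones, Eng was 3.40-fold higher with ZEB2 (1291 and 380) and Cdh5 at least 2.97-fold lower. The part of any of these cells in the interferon and leukocyte differences was not tested.

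Secreted proteases differed in both directions. Of 26 matrix proteases and inhibitors, 9 (34.6%) were at least 2-fold lower and 5 (19.2%) at least 2-fold higher with ZEB2, against 6.41% and 5.76% of all genes, and the median was -0.55. Mmp13, a collagenase, had 373 on the ZEB2 array and 7843 on the ZEB1 array, a 21.0-fold difference and the largest measured one between these arrays. Mmp3, a stromelysin, had 187 with ZEB2 and 1756 with ZEB1. Mmp10, another stromelysin, had 1382 and 6592, the collagenase gene Mmp1a 433 and 2628, and Serpinb2, an inhibitor of plasminogen activators, 718 and 3948. On BRAF-off Mmp13 stood at 86.1 and the other 4 were under the floor. The opposite group held Mmp2, a gelatinase, with 1788 on the ZEB2 array and 405 on the ZEB1 array, Adam12 (1812 and 339), and Hpse, the heparanase gene, at least 6.96-fold higher. Timp1, an inhibitor of these proteases, was at -0.97 and Timp2 at -0.59.

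The AP-1 element TGANTCA, bound by Fos and Jun family proteins, was in 7 of 17 protease and inhibitor genes with a window (41.2%), against 6.28% of all genes. Mmp13 and Mmp3 are shown because they had the widest ratios among the members holding it, and they lie on the same chromosome, at chr9:7272432-7272531 and chr9:7445729-7445828, both on the plus strand.
Mmp13: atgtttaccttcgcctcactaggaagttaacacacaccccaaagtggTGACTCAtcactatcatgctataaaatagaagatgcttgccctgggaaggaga
Mmp3: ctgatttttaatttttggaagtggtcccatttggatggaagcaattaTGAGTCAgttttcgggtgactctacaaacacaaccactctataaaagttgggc

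**Figure D4:**
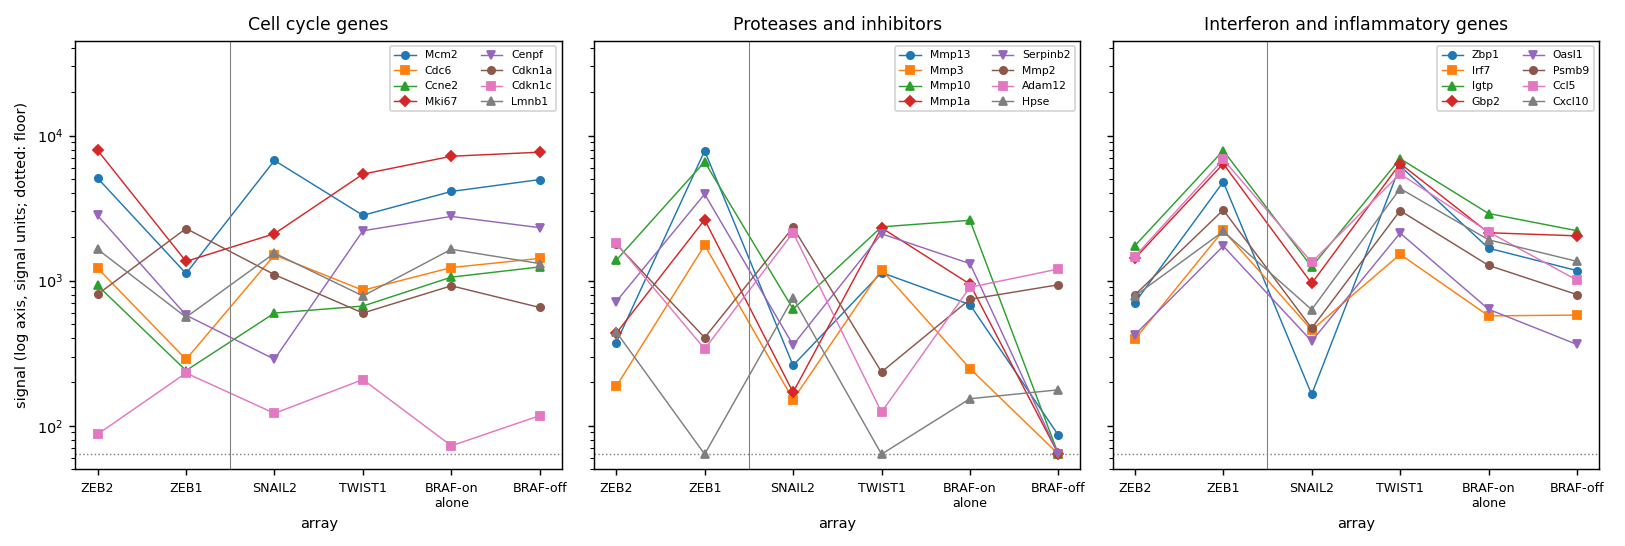
Signal (vertical, log axis, signal units) of 8 cell cycle genes (left), 8 proteases and inhibitors (middle) and 8 interferon and inflammatory genes (right) on each of the 6 arrays (horizontal), with values under 63.7 drawn at the dotted line. Lines join the points of 1 gene and have no meaning between arrays. Mki67 and the replication genes are low on the ZEB1 array, Mmp13, Mmp3, Mmp10, Mmp1a and Serpinb2 are highest there, and interferon genes are high on both the ZEB1 and the TWIST1 array.

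Among secreted inflammatory factors 6 of 18 were lower and 0 higher with ZEB2, and the median was -0.48. The chemokine gene Ccl5 had 1466 on the ZEB2 array and 6840 on the ZEB1 array, Ccl2 1272 and 4455, and Cxcl10 784 and 2185. The cytokine gene Il6 did not share this, with a ratio of -0.02. The list of insulin-like growth factor binding proteins, which also holds a growth factor and receptors, had 3 of 8 lower (37.5%). Over all genes 6.41% were lower. The 3 were Igfbp3 at 2601 and 6399, Igfbp4 at 248 and 694, and Igfbp7 at 3207 and 7805. Igfbp2 (0.02) and Igfbp6 (-0.57) were within 2-fold.

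ERK is the kinase at the end of the cascade that starts from BRAF, and its known outputs were mixed. Of 26 entered, 5 were lower and 1 higher with ZEB2, with a median of -0.25. Dusp5, a phosphatase that acts on ERK, had 236 with ZEB2 and 1065 with ZEB1, Ier3 1776 and 5037, and the immediate early gene Egr1 1352 and 3242. Dusp4, a related phosphatase, pointed the other way at 0.69. Myc, which promotes growth, was 2.64-fold higher with ZEB2. For 12 of the 26 (46.2%) the ZEB1 array was the highest of the 6, against 30.3% of all genes entered.

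Mesenchymal markers had 4 of 22 lower and 1 higher with ZEB2, and a median of -0.30. Fap, a surface protease of fibroblasts, had 86.1 with ZEB2 and 288 with ZEB1, Tnc, the matrix protein tenascin C, 731 and 2011, and Bgn, the proteoglycan biglycan, 282 and 630, while Vim (0.09) and Fn1 (0.21) were even. In smooth muscle genes, Tagln was 3.23-fold higher with ZEB2 (897 and 278) and Myl9 3.02-fold lower (113 and 342), with a median of -0.07 over 16. Of 15 targets of YAP and SRF entered, 3 (20%) were higher with ZEB2 and 2 (13.3%) lower. The higher ones were the YAP targets Ccn2 (2918 and 1078), Ankrd1 (2523 and 1165) and Ccn1 (11229 and 5496). The ZEB1 array was the lowest of the 6 for all 3. Other YAP targets were within 2-fold, such as Amotl2 (0.43), Lats2 (0.15), Axl (-0.19) and Nuak2 (-0.76). Egr3 and Egr1 of the same list were lower with ZEB2, and its median was 0.08. Collagens had 5 of 24 lower and 3 higher: Col9a1 had 4030 with ZEB2 and 9965 with ZEB1, and Col14a1 462 and 110. Another Col14a1 probe set was nearly even, at 0.08. Integrins and laminins had 5 of 23 lower and 1 higher. In the TGF-beta and BMP list, 3 of 19 were lower, Tgfb3, Bmp4 and Ltbp2, and 2 higher, Id2 (2700 and 854) and Id4 (268 and 119).

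Of 40 lysosome and autophagy genes 3 were at least 2-fold lower with ZEB2, a share of 7.50% close to the 6.41% of all genes. Their median was -0.34, and 8 of 40 lay above 0, against 44.9% of all genes. The 3 lower genes were Map1lc3b, Ctsa, the protective cathepsin, with 3982 and 8332, and Cd68, whose values are given among the macrophage markers. Another Ctsa probe set was at only -0.16. Respiratory chain subunits (median -0.18 over 41) and ribosomal proteins (-0.10 over 28) had 0 members 2-fold apart. In glycolysis and hypoxia 4 of 26 genes were lower (median -0.13), with Eno2 at 93.2 and 297. The unfolded protein and ATF4 list had 3 of 32 lower (9.4%) and 1 higher (3.1%), against 6.41% and 5.76% of all genes. Its median was 0.00, and its lower members were Ddit3 (844 and 2830), Vldlr and Atf3. Another Ddit3 probe set was even, at 0.003. Antioxidant genes had 2 of 25 higher (8%), Gsta2 (2017 and 385) and Gclc, and 1 lower (4%), Osgin1. These shares are near the 5.76% and 6.41% of all genes. Schwann and glial markers had 5 of 11 higher, 2 of which are shared with the lineage list, and a median of 0.52, with S100b at 1183 and 534.

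**Figure D5:**
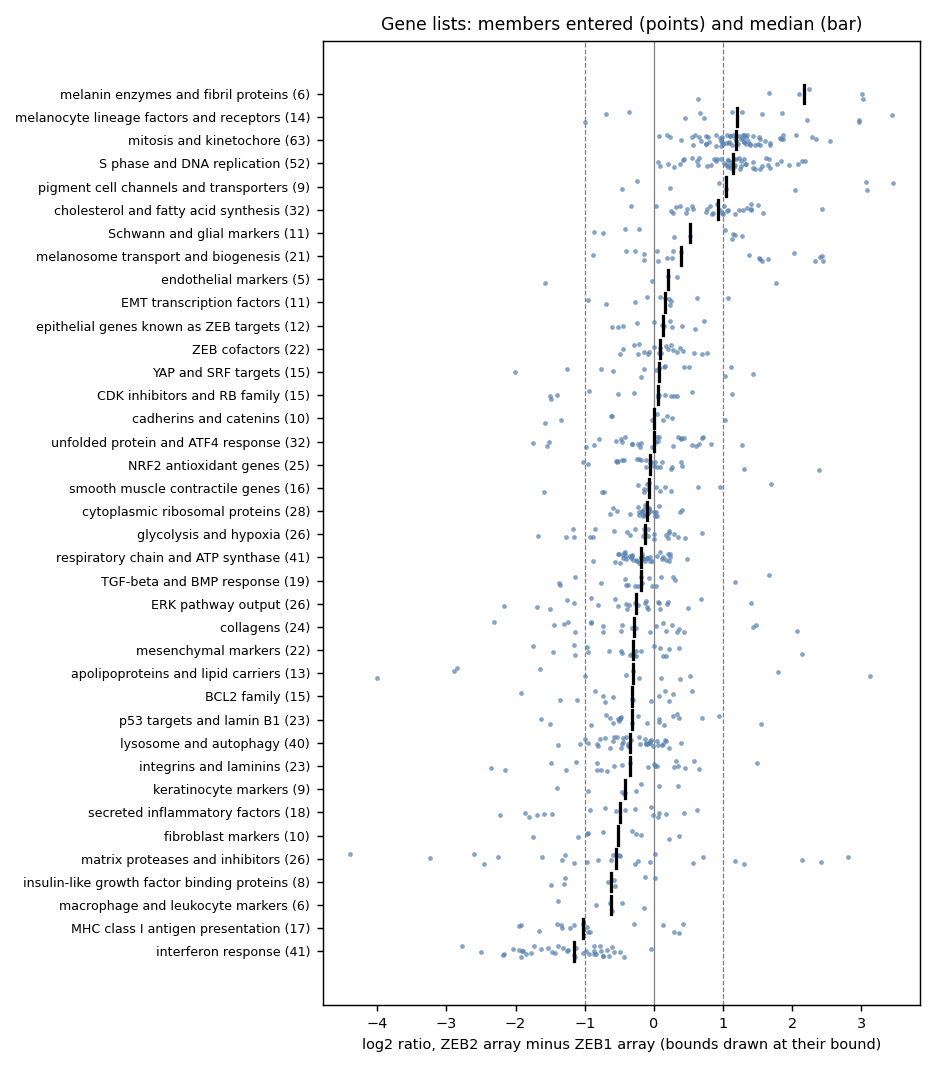
Log2 ratio of the ZEB2 array over the ZEB1 array (horizontal) for the members entered of 38 gene lists (rows, with their number), bounds drawn at their bound; bars are medians, dashed lines mark a 2-fold difference. Melanin enzymes stand at the top with a median of 2.17 and interferon genes at the bottom with -1.15.

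On the higher side with ZEB2, Mreg, a regulator of melanosome transfer, had 1384 against 148 with ZEB1, the tetraspanin gene Tspan10 2041 against 234, the protease gene Bace2 2034 against 260, and the nuclear receptor gene Nr4a3 2077 against 271. Cfap54, a gene of cilia, was at least 14.7-fold higher and Cttnbp2 at least 14.1-fold. On the lower side, Inmt, a methyltransferase gene, had 77.7 with ZEB2 and 1116 with ZEB1, the milk casein gene Csn3 1152 and 14634, Aox1, an aldehyde oxidase, 79.7 and 640, and Gch1, the first enzyme of tetrahydrobiopterin synthesis, 171 and 1227. S100a8, a calcium binding protein of neutrophils, was at least 5.35-fold lower with ZEB2.

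The comparison of SNAIL2 against TWIST1 uses no array of ZEB2 or ZEB1, so the same genes can be read in it without a shared sample. It had 9.16% of genes higher by 2-fold or more and 9.94% lower. Of the 668 genes higher with ZEB2 than with ZEB1, 299 (44.8%) were at least 2-fold higher with SNAIL2 than with TWIST1, which is 28.6% of the SNAIL2-higher genes, and 56 (8.38%) were lower. Of the 743 lower genes, 283 (38.1%, or 25% of the SNAIL2-lower ones) were lower there too, and 2 were higher. Across 11079 genes Pearson's r was 0.49 and Spearman's rho 0.39. Genes are not independent replicates, and all 4 arrays share platform and cell line. The same 18S probe set had 11263 with SNAIL2 and 4338 with TWIST1, and the part of this was not tested. Pigment genes (median 2.39 over 48), cholesterol synthesis (1.23 over 32) and interferon response (-1.41 over 41) had the same sign in both pairs. The S phase median was 0.37 and the mitosis median -0.13 there, against 1.14 and 1.19 for ZEB2 over ZEB1. Lysosome genes were at 0.52 there and at -0.34 here.

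BRAF-on against BRAF-off is a second comparison with no array in common. Here 1.04% of genes were higher by that size and 0.384% lower. Of the 743 genes lower with ZEB2 than with ZEB1, 83 (11.2%) were among the genes at least 2-fold higher in BRAF-on, and they made up 71.6% of those genes. Another 4 (0.538%) were lower in BRAF-on, 9.30% of the genes lower there. Of the 668 genes higher with ZEB2, 18 (2.69%) were at least 2-fold lower in BRAF-on, 41.9% of that list, and 0 were higher. Across 10974 genes r was -0.44 and rho -0.39.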

How the data were processed

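RNA of 6 cultures was labelled with a kit that copies transcripts from their 3' end and was read on Affymetrix arrays of 1 colour, per the labels' protocols. The authors deposited signal intensity values, linear in scale, for which the submitters' processing notes name MAS5 and Affymetrix Expression Console 1.1. Leaving out the top and bottom 2% of values, the mean of every array was 500. Of 45037 probe sets other than controls, 34945 carried a single gene symbol in the platform annotation, and the RefSeq table (GRCm38.p6) held 34741 of them by gene number. Where a gene had several probe sets, the one with the highest mean log2 signal stood for it. The floor of 63.7 units is the median of all values other than controls. A gene was entered if 1 of the 2 arrays reached it, and 2-fold was the size counted, with no test. The counting code was also run on simulated data, with changes larger than 2-fold planted only in genes well above the floor. That run checks the code, and it cannot speak for dim genes or for differences between cultures.

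Members and the 38 gene lists (1036 entries, 953 with a probe set) were chosen with earlier results of these data known. The rule named the 15 largest measured log2 ratios and 8 largest bounds per direction, without clone names and genes with an opposing probe set. From each list it named up to 8 members at least 2-fold apart (up to 4 where none was), and it named all transition factors, melanin enzymes, cadherins and lineage factors, and Braf. Other genes (Il6, B2m, Hps1, Orc6, Timp1 and the like) were named after their values were seen. Promoter windows were those of 9427 of the 11600 genes entered. There were 9 alternatives, whose effect is given in the closing section. Python 3.11.15 with numpy 2.4.6 and pandas 2.3.3 was used.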

Additional observations from a re-analysis of the deposited data

How the results depend on the processing

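Under quantile normalization, centring, the floor at the 60th percentile, the floor as pseudocount, the median of all probe sets and without probe sets that may match several transcripts, both counts of genes stayed within 1.5 times those reported. The balance between them moved. With each array centred on its median, the median log2 ratio over all genes was 0.017, against -0.064 as reported. Genes higher with ZEB2 then made up 56.2% of the genes counted, against 47.3%. With the floor at the 75th percentile 331 genes were higher with ZEB2 and 267 lower, without a floor 2133 and 2717, and at 3-fold 197 and 176, as fewer genes are entered, dim genes are entered, or the size is larger. The median of secreted inflammatory factors became -1.20 and -1.48 with the floor at the 60th and 75th percentile, and -0.19 with the floor as pseudocount, where the median log2 ratio of EMT transcription factors (factors of the epithelial to mesenchymal transition) was -0.00934. The sign turned, when a gene took the median of its probe sets, for these factors (-0.075), epithelial ZEB targets (-0.30), CDK inhibitors (-0.13), Erbb3 (-0.22), Pola1 (-0.63), Rbl1 (-0.027), Msmo1 (-1.19) and Aldoc (0.083). With the floor at the 75th percentile it turned for smooth muscle genes (0.035) and keratinocyte markers (0.35), and without probe sets that may match several transcripts for endothelial markers (-0.024) and Grhl2 (-1.01). Erbb3, Pola1, Msmo1 and Aldoc each have 2 probe sets, and the second was under the floor on both arrays. The cause of these turns was not tested. Medians near 0 on both sides also changed sign for cadherins and catenins, the unfolded protein and ATF4 list and antioxidant genes. Of 38 list medians, 29 kept their sign under every alternative, and of 181 named genes at least 2-fold apart 109 stayed so under all but the 3-fold one. No paired analysis was possible because each group has 1 array. Signal over background limits dim genes, among which the counts move most with the floor.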
